A study of Homo sapiens with 7 samples.

Results

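Loops of ZNF143 and of CTCF were compared in unmodified HEC-1-B cells, a human uterine adenocarcinoma cell line, to see how the contacts enriched with either protein lie relative to each other. The members were all loops of the lists deposited for these libraries, 11981 ZNF143 loops and 19313 CTCF loops, together 31294 of the 135475 loops in the 7 lists of the study. Each loop is a pair of DNA intervals, called anchors, that HiChIP found joined: DNA ends close together in formaldehyde-fixed nuclei were ligated, the chromatin was precipitated with an antibody, here against ZNF143 or CTCF, and both ends were sequenced. The same loops and anchors were also looked up in 3 further lists, namely RAD21 loops of the unmodified cells (genotype wild type), ZNF143 loops of the derived CTCF-AID cells at 0 h of auxin, in which CTCF carries a degradation tag, and CTCF loops of cells whose genotype is labelled ZNF143KO, a knockout of ZNF143. Each group held 1 library, so the differences below have no replicate check, no test across replicates and no p-value, and the libraries, the antibodies and the groups cannot be told apart. Whether the ZNF143KO or CTCF-AID cells were 1 clone was not stated in the labels.

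CTCF is a zinc-finger protein that binds DNA in a set orientation and stops the cohesin ring, of which RAD21 is a subunit, as the ring enlarges a loop of DNA. Strong CTCF loops therefore often close at a pair of CTCF sites and are also found with cohesin. ZNF143 is a zinc-finger activator that binds mostly close to the starts of genes, among them housekeeping and small nuclear RNA genes, and it has been discussed as a factor in contacts between promoters and enhancers.

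The ZNF143 list had a summed count of 49348 over its loops and the CTCF list one of 80726. The count is a whole number per loop and was taken as the number of supporting read pairs. These sums run over listed loops and are not the depth of the libraries, which is unknown. Counts began at 2 in every list. A loop missing from a list may have had fewer than 2 counts or no called anchor there, or may have been removed by an unstated filter. It was not shown to be absent. A count of 2 made up 51.7% of ZNF143 loops and 50.2% of CTCF loops. The mean count was 4.12 and 4.18, and the highest count was 127 and 401. The lists rested on 9711 ZNF143 and 16948 CTCF anchors, with median widths of 1797 and 1827 bp. The wild-type ZNF143 list and the CTCF list of ZNF143KO cells shared a file layout of 7 columns, and the wild-type CTCF, RAD21 and CTCF-AID lists one of 8. Of the counts above 2, 66.0% were even in the CTCF-AID list, against 36.1% in the ZNF143 list, 37.5% in the CTCF list, 38.2% in the RAD21 list and 32.1% in the list of ZNF143KO cells, so whether the CTCF-AID counts are on the same scale is not known.

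The lists differed in how loops were spread over anchors. More of the ZNF143 loops ran out from a small number of highly connected anchors than of the CTCF loops. The mean number of loops per anchor was similar, 2.47 for ZNF143 and 2.28 for CTCF. The highest number was 58 for ZNF143 and 27 for CTCF. Anchors with 20 or more loops numbered 106 in the ZNF143 list and 7 in the CTCF list, although the latter had more loops. Anchors with 10 or more loops, called hubs here, numbered 359 (3.70% of ZNF143 anchors) and 268 (1.58% of CTCF anchors), a difference of 2.12 percentage points (95% Newcombe interval 1.71 to 2.55). At the other end, 57.2% of ZNF143 anchors and 51.2% of CTCF anchors had 1 loop. The share with 5 or more loops was 10.2% (95% Wilson interval 9.60 to 10.8) and 11.1% (10.6 to 11.5), so ZNF143 was lower at this middle level and higher in the tail. The lower share at 5 or more loops reversed with a minimum count of 3 or 5 and with equal numbers of loops, and with spans of 40 kb to 1 Mb its interval included 0 (-0.275 points, -1.03 to 0.499). The share of hubs was higher for ZNF143 under each alternative run. These intervals, like all below, cover counting error within the libraries only, and neighbouring loops with a common anchor count as independent in them although they are not.

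**Figure D1:**
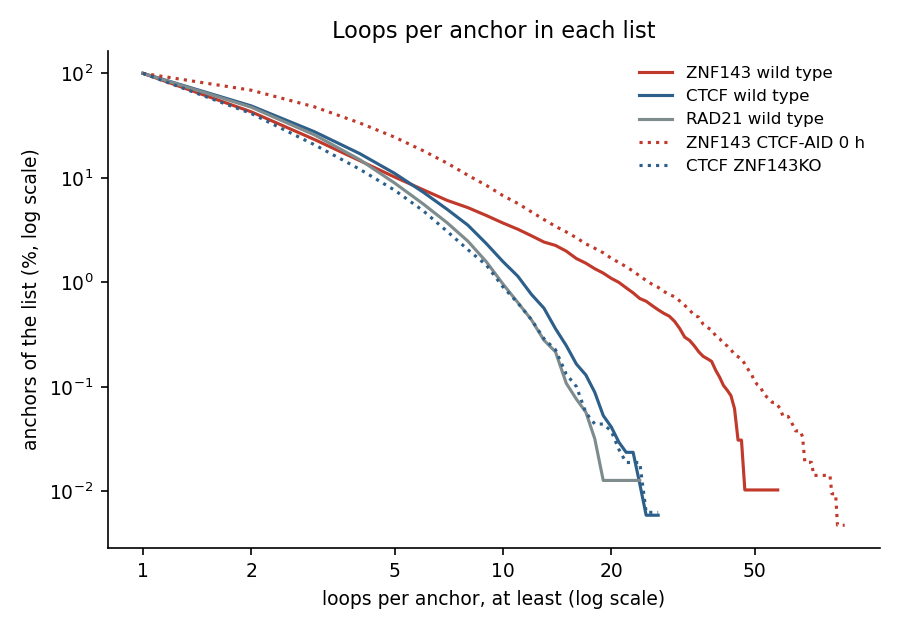
Share of a list's anchors (log scale) that had at least the number of loops on the horizontal axis (log scale), 1 line per list. The ZNF143 lines of both libraries run far to the right of the others: in wild-type cells they reach 58 loops, against 27 for CTCF and 24 for RAD21.

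The long tail was also present in the other ZNF143 list and not in the other lists, while the shares at lower numbers of loops were not alike. In the ZNF143 list of CTCF-AID cells 31.0% of anchors had 1 loop and 24.5% had 5 or more, and in the CTCF list of ZNF143KO cells 58.7% and 7.63% did. In the RAD21 list 2 anchors had 20 or more loops and in the CTCF list of ZNF143KO cells 6 did, against 359 in the ZNF143 list of CTCF-AID cells at 0 h, which held 40405 loops. The 1% of anchors with most loops held 11.9% of all loop ends in the ZNF143 list, 5.92% in the CTCF list, 5.56% in the RAD21 list and 9.63% in the CTCF-AID list. Of the ZNF143 loops 41.4% had a hub at 1 end and 5.99% at both, so most loops of a hub led to a less connected anchor. For CTCF these shares were 15.6% and 0.756%. ZNF143 loops with no hub end were found in the CTCF list, by the rule given below, in 27.9% of cases (26.8 to 29.0), and those with 1 hub end in 9.25% (8.48 to 10.1). CTCF loops went the other way, with 11.9% (11.4 to 12.4) and 17.0% (15.7 to 18.4) found in the ZNF143 list. These ZNF143 classes also differed in median span, 111.7 and 187.3 kb, and in the share on chromosome 19, 8.30% and 37.1%. The CTCF classes also differed in mean count, 3.72 and 6.12. The part of these differences in the shares found was not tested.

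Few anchors were hubs of both proteins, and few anchors of any kind in either list were hubs of the other. Of the 359 ZNF143 hubs, 174 (48.5%, 43.3 to 53.6) lay at a CTCF anchor, against 60.1% of all ZNF143 anchors. Of these hubs 8 (2.23%) were CTCF hubs as well, close to the 2.41% of all ZNF143 anchors that were. The median number of CTCF loops at a ZNF143 hub was 0. It was 1 over all ZNF143 anchors and also 1 at those with 20 or more loops. Of the 268 CTCF hubs, 220 (82.1%, 77.1 to 86.2) lay at a ZNF143 anchor, against 35.2% of all CTCF anchors. The median number of ZNF143 loops was 2 over all CTCF hubs and 0 over all CTCF anchors. ZNF143 hubs made up 2.99% of the CTCF hubs (8 of 268) and 0.897% of all CTCF anchors. Of the classes of ZNF143 anchors by connectivity, the share that met a CTCF anchor was highest for those with 2 to 4 loops, 66.7% (65.0 to 68.3), and 50.9% (41.6 to 60.3) for those with 20 or more. Among CTCF anchors the share at a ZNF143 anchor rose with connectivity, from 23.7% (22.8 to 24.6) with 1 loop to 65.5% (63.1 to 67.8) with 5 to 9 loops and 81.6% (76.5 to 85.8) with 10 to 19 loops. The Spearman correlation of the numbers of loops over 5836 anchors present in both lists was 0.21. It was 0.60 over 8006 anchors between the ZNF143 lists of wild-type and CTCF-AID cells, 0.58 over 11560 anchors between CTCF and RAD21, and 0.53 over 10970 anchors between the CTCF lists of wild-type and ZNF143KO cells. These are descriptions across anchors, which share libraries and neighbours and are not replicates.

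ZNF143 hubs were present in the second ZNF143 library. All 359 lay at an anchor of the CTCF-AID list, 346 of them (96.4%) had 10 or more loops there too, and their median number of loops there was 26. Of all ZNF143 anchors 82.4% lay at an anchor of that list and 13.6% at a hub of it. All 268 CTCF hubs were anchors of the CTCF list of ZNF143KO cells, and 90 (33.6%) were hubs there, with a median of 8 loops in a list of 15597 loops. Of all CTCF anchors 64.7% were anchors of that list and 0.897% were hubs there. At a RAD21 anchor lay 99.3% of the CTCF hubs, against 68.2% of all CTCF anchors, and 40.7% of the ZNF143 hubs, against 55.8% of all ZNF143 anchors.

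Positions are those of the hg19 build, which the submitters' processing notes name, counted from 1. Genes and sequences at these anchors were not analysed here. The most connected ZNF143 anchor was on chromosome 19, 49147532 to 49150488. It had 58 ZNF143 loops with a summed count of 581, 11 CTCF loops and 6 RAD21 loops, and 84 loops in the CTCF-AID list. Its ZNF143 loops ran to both sides, 21 towards lower and 37 towards higher positions, with a median span of 243.5 kb and a longest span of 1866 kb, and 30 of them ended at another hub. Of these 58 loops 13 were found in the CTCF list.

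Further ZNF143 hubs on the same chromosome were at 49297700 to 49299687, with 46 ZNF143 and 6 CTCF loops, and at 47353490 to 47355035, with 46 ZNF143 and 2 CTCF loops. The latter had 89 loops in the CTCF-AID list, 1 in the RAD21 list and none listed in the CTCF list of ZNF143KO cells. The fourth, on chromosome 17 at 73779486 to 73781987, had 44 ZNF143 loops with a summed count of 527 and 2 CTCF loops. Of its 44 loops 1 ended at another hub. Other anchors had 44 ZNF143 loops as well, with lower summed counts.

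At the 7 CTCF anchors with 20 or more loops the median number of ZNF143 loops was 8, against 0 over all CTCF anchors. The most connected of them, on chromosome 12 at 52416866 to 52420199, had 27 CTCF, 24 RAD21 and 8 ZNF143 loops. The second, on chromosome 20 at 48802364 to 48803606, had 24 CTCF, 24 RAD21 and 4 ZNF143 loops. On chromosome 1, the anchor at 225661310 to 225663660 had 23 CTCF, 16 RAD21 and 2 ZNF143 loops. On chromosome 19, the anchor at 48793317 to 48795313 had 23 CTCF, 13 RAD21 and 8 ZNF143 loops.

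Loops of the 2 proteins were also spread differently over the chromosomes. Chromosome 19, which is rich in genes and in clusters of zinc-finger genes, held 2951 ZNF143 loops, 24.6% of the list (23.9 to 25.4), and 1134 CTCF loops, 5.87% (5.55 to 6.21). The difference was 18.8 percentage points (17.9 to 19.6). Chromosome 19 was also the 1 chromosome of 23 with more ZNF143 than CTCF loops in absolute number, at 2.60 ZNF143 loops per CTCF loop. The share was 19.7% in the ZNF143 list of CTCF-AID cells, 4.92% in the RAD21 list and 5.62% in the CTCF list of ZNF143KO cells. Both ZNF143 lists had the high share, and the other 3 lists did not.

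Chromosome 17 followed, with 9.11% (8.61 to 9.64) of ZNF143 and 6.64% (6.30 to 6.998) of CTCF loops, a difference of 2.48 points (1.86 to 3.11). On chromosome 16 the shares were 5.98% (5.57 to 6.42) and 3.72% (3.46 to 3.99), a difference of 2.27 points (1.77 to 2.78), with nearly equal loop numbers of 717 and 718. The lowest differences were on chromosome 1, -3.65 points (-4.31 to -2.98), chromosome 3, -2.45 points (-3.05 to -1.85), and chromosome 5, -2.41 points (-2.85 to -1.97). Of the 23 chromosomes with loops in both lists, 4 had an interval above 0 (16, 17, 19 and 20), 17 had one below 0 and 2 had one that included 0. Because shares of a list sum to 100%, the excess on chromosome 19 lowers the ZNF143 share on the others. With chromosome 19 left out of both lists, chosen after its value was seen, the differences on chromosomes 17 and 16 were 5.04 points (4.28 to 5.82) and 3.99 points (3.38 to 4.63), and those on chromosomes 1, 3 and 5 were -1.74, -0.895 and -1.80 points. Of the 22 other chromosomes with loops in both lists, 5 then had an interval above 0, 12 had one below 0 and 5 had one that included 0. Chromosome 11 changed direction, from -0.581 points (-1.07 to -0.0768) to 0.652 points (0.0557 to 1.27), and chromosome 12 moved to 1.18 points (0.502 to 1.87). Chromosome 4, picked after its values were seen, had 41 ZNF143 and 342 CTCF loops, 0.120 ZNF143 loops per CTCF loop.

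**Figure D2:**
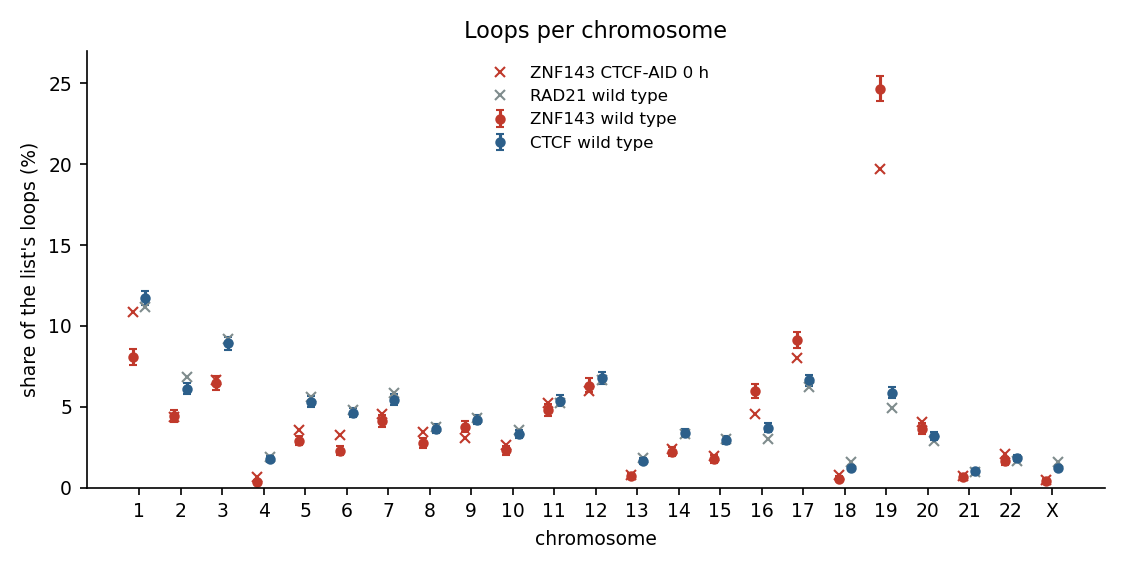
Share of each list's loops (%) by chromosome, with 95% Wilson intervals for the wild-type ZNF143 and CTCF lists and crosses for the ZNF143 list of CTCF-AID cells at 0 h and the wild-type RAD21 list. Chromosome 19 holds 24.6% of wild-type ZNF143 loops and 5.87% of CTCF loops.

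On chromosome 19 the anchors were not simply more numerous but more connected. There were 1173 ZNF143 and 847 CTCF anchors there, with means of 5.03 and 2.68 loops, and 154 of the 359 ZNF143 hubs (42.9%) against 25 of the 268 CTCF hubs (9.33%). Of the ZNF143 loops of that chromosome, 19.9% joined 2 hubs and 62.4% had 1. The largest set of anchors linked by ZNF143 loops was also there, with 432 anchors (36.8% of its ZNF143 anchors), and the largest such CTCF set of the chromosome had 121 (14.3%). Without chromosome 19 the mean number of loops per anchor was 2.12 for ZNF143 and 2.26 for CTCF, an order opposite to that with it. There were then still 51 ZNF143 and 6 CTCF anchors with 20 or more loops, and the highest numbers were 44 and 27. Hubs of 10 or more loops then numbered 205 for ZNF143 and 243 for CTCF, fewer for ZNF143, although their share of anchors was still higher by 0.892 percentage points (0.528 to 1.28).

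Within windows of 1 Mb the concentration was likewise higher for ZNF143. Its loop ends fell in 1483 windows, of which the 96 fullest held 50% of all ends, while CTCF ends fell in 2319 windows and needed 352. Of the 20 fullest ZNF143 windows 12 were on chromosome 19, and of the 20 fullest CTCF windows 4 were. The fullest ZNF143 window there, from 49 to 50 Mb, held 761 ZNF143 and 124 CTCF loop ends. Some windows held few or no CTCF ends, with 336 ZNF143 and 7 CTCF ends from 58 to 59 Mb, 161 and 0 from 57 to 58 Mb and 140 and 1 from 37 to 38 Mb. Others held more CTCF ends, with 9 ZNF143 and 76 CTCF ends from 43 to 44 Mb and 4 and 50 from 33 to 34 Mb. These windows were singled out after their values were seen.

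A loop counted as shared when, with its anchors widened by 5 kb, each of them met the matching anchor of 1 loop in the other list. By this rule 2273 of 11981 ZNF143 loops (19%, 18.3 to 19.7) were found in the CTCF list, and 2463 of 19313 CTCF loops (12.8%, 12.3 to 13.2) in the ZNF143 list. Both shares were lower, 7.53% and 4.92%, with a minimum count of 5, and their order reversed, to 15.2% and 15.8%, with equal numbers of loops. RAD21 loops gave a scale for these shares, since 52.2% (51.4 to 52.9) of them were found in the CTCF list. The numbers of shared loops differ between the lists because 1 loop can match several, which 497 ZNF143 loops did. On chromosome 19, 10.5% of ZNF143 and 25.0% of CTCF loops were shared, and elsewhere 21.7% and 11.99%. Much the same shared loops are divided here by each list's number of loops. These numbers were 2951 and 1134 on chromosome 19 and 9030 and 18179 elsewhere. The opposite order on chromosome 19 thus follows from the numbers of loops.

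Well supported CTCF loops were shared more often than weak ones, but well supported ZNF143 loops were not. For CTCF the share rose at each step, from 7.81% (7.30 to 8.37) at a count of 2 to 20.3% (18.9 to 21.8) at 5 to 9 and 47.7% (42.4 to 53.1) at 20 or more. For ZNF143 it was 19.7% (18.7 to 20.7) at a count of 2, 16.6% (15.0 to 18.5) at 5 to 9 and 22.3% (17.4 to 28.1) at 20 or more, where 52 of 233 loops were found. For scale, 99.4% (97.8 to 99.8) of the CTCF loops with 20 or more counts were found in the RAD21 list, and 97.0% (93.9 to 98.5) of such ZNF143 loops in the ZNF143 list of CTCF-AID cells. The strongest ZNF143 loops were thus listed again with the same antibody in derived cells. Of these 233 loops 181 were not in the CTCF list, a share close to that of all ZNF143 loops (9708 of 11981).

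**Figure D3:**
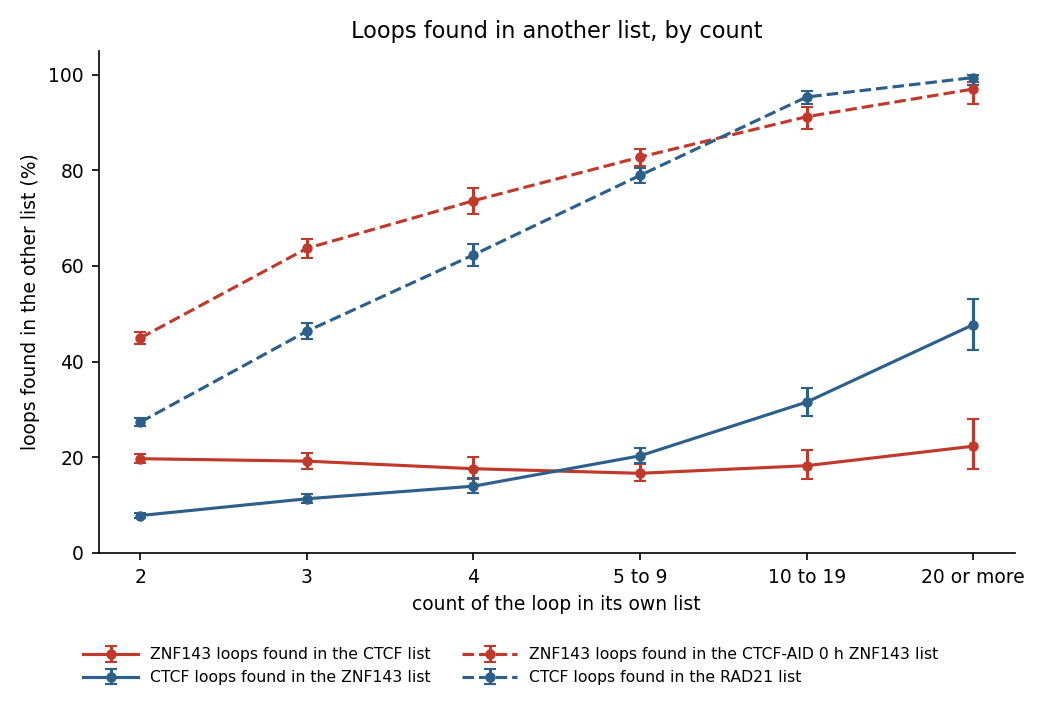
Share of loops (%) found in another list, by the count of the loop in its own list, with 95% Wilson intervals. Solid lines compare ZNF143 and CTCF in wild-type cells, dashed lines are the reference pairs; at 20 or more counts the values are 22.3% and 47.7% on the solid lines and 97.0% and 99.4% on the dashed lines.

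Shared loops were shorter than the others. In the ZNF143 list the median span, the distance between anchor midpoints, was 98.3 kb for shared and 159.4 kb for unshared loops, and in the CTCF list it was 102 and 164.4 kb. Of ZNF143 loops spanning 20 to 50 kb, 25.8% (24.0 to 27.6) were found. For spans of 200 to 500 kb the share was 13.4% (12.3 to 14.6), and for spans of 1 to 2 Mb it was 2.55% (1.30 to 4.95). The share of RAD21 loops found in the CTCF list went from 54.0% to 28.5% (24.1 to 33.3) over the same classes. Over whole lists ZNF143 loops were slightly shorter: medians were 144.5 kb (140.1 to 148.1) for ZNF143 and 153.8 kb (151.2 to 156.8) for CTCF, with quartiles of 63.8 and 300.8 kb and of 70.9 and 304.7 kb. The ratio of the medians was 0.939 (0.893 to 0.979), with limits formed from the ends of the intervals of both medians. When equal numbers of loops were taken it was 1.02 (0.965 to 1.07). With spans of 40 kb to 1 Mb it was 0.968 (0.930 to 1.01). Both of these ranges include 1. On chromosome 19 the order was opposite, with medians of 163 kb for ZNF143 and 105.2 kb for CTCF. It was opposite also on chromosomes 16, 17, 18 and 22. Without chromosome 19 the ratio was 0.875 (0.830 to 0.922). Shared CTCF loops had more counts than unshared ones, with means of 7.55 and 3.69, whereas shared and unshared ZNF143 loops both had a mean of 4.12.

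Counts in the 2 lists were nearly unrelated at the loops they shared. Matching each loop to its nearest counterpart, where the choice was mutual, left 2086 pairs, and the Spearman correlation of the counts was 0.07 over them. It was 0.59 over 8330 pairs of CTCF and RAD21 loops, 0.54 over 6785 pairs of ZNF143 loops in wild-type and CTCF-AID cells and 0.45 over 6891 pairs of CTCF loops in wild-type and ZNF143KO cells. Pairs within 1 comparison share libraries and anchors, so these are descriptions. Of the 128 pairs with 10 or more ZNF143 counts, 25 (19.5%) had 10 or more CTCF counts. Over all 2086 pairs 410 did, a similar share. Of 1230 CTCF loops with 10 or more counts that were paired with RAD21 loops, 65.6% had 10 or more RAD21 counts. The share varied also for the same protein: of 1142 such CTCF loops paired with those of ZNF143KO cells, 18.6% had 10 or more counts there. Shares over all pairs are not given for the RAD21 and ZNF143KO comparisons, so these values cannot be ranked.

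After division by each list's summed count, 424 pairs (20.3% of those compared) were over 2-fold higher in ZNF143 and 468 (22.4%) were over 2-fold higher in CTCF, and 57.2% lay within 2-fold. The split depends on the scale: with undivided counts, chosen after the values were seen, 9.30% were over 2-fold higher in ZNF143 and 33.6% in CTCF. The median log2 ratio was 0.13 with division and -0.58 without it, so it has no firm sign. On chromosome 19, 41.5% of 258 pairs were over 2-fold higher in ZNF143 and 12.8% in CTCF, and elsewhere 17.3% and 23.8% of 1828 pairs were, on the divided scale.

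**Figure D4:**
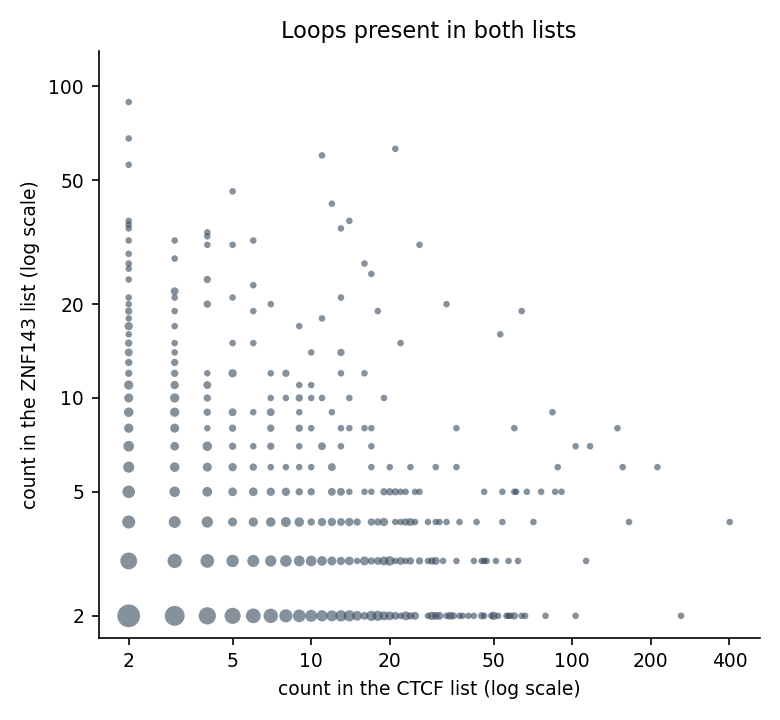
Counts of the 2086 matched loops in the CTCF list (horizontal) and the ZNF143 list (vertical), both on log scales; larger points stand for more pairs with the same counts. Many points lie along the axes at 2 counts, and 25 pairs have 10 or more counts in both lists.

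The shared loops named next were picked by summed count or by ratio. This choice favours unequal counts, so nothing is read from them about all pairs. The pair with the highest summed count joined chromosome 16, 55498344 to 55499850, to 55735210 to 55738250 over 237.6 kb. Its count was 401 for CTCF and 432 for RAD21, but 4 for ZNF143 and 8 in the CTCF-AID list, and 70 for CTCF in ZNF143KO cells. The next joined chromosome 5, 140254134 to 140255380, to 140418923 to 140421630 over 165.5 kb, with counts of 261 for CTCF, 378 for RAD21 and 2 for ZNF143. It also had the lowest log2 ratio of ZNF143 to CTCF among pairs with a summed count of 20 or more, -6.32. The third joined chromosome 17, 43212235 to 43213674, to 43274551 to 43276348, with 212 CTCF, 130 RAD21 and 6 ZNF143 counts. The fourth joined chromosome 12, 52416866 to 52420199, to 52476783 to 52477935, with 165 CTCF, 162 RAD21 and 4 ZNF143 counts, and started at the most connected CTCF anchor. All 4 were listed as ZNF143 loops on at most 6 counts. Outside these, the loop on chromosome 2 from 121452762 to 121454315 to 121837372 to 121838566 was among the 3 lowest log2 ratios, at -4.98, with 103 CTCF and 2 ZNF143 counts.

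At the other extreme stood a loop of chromosome 19 from 45906702 to 45909809 to 45987998 to 45989832. It had 89 ZNF143 counts, 97 in the CTCF-AID list, 2 CTCF and 5 RAD21 counts, a log2 ratio of 6.19. Its anchors had 41 and 40 ZNF143 loops and 5 and 8 CTCF loops. The next were a loop of chromosome 17 from 73850841 to 73852478 to 73890848 to 73893820, with 68 ZNF143 and 2 CTCF counts (log2 ratio 5.80), and a loop of chromosome 16 from 30907279 to 30909403 to 30932842 to 30936136, with 56 ZNF143 and 2 CTCF counts (5.52). Each of these 3 loops ended at 1 or 2 ZNF143 hubs.

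Over the 257 pairs with a summed count of 20 or more, 53 were over 2-fold higher in ZNF143 and 181 in CTCF. A pair can reach this sum through 1 list alone, and undivided counts were larger in the CTCF list, so the filter itself favours unequal pairs and CTCF, and nothing is read from this split. Of the 53, 25 (47.2%) were on chromosome 19, 37 (69.8%) were in the RAD21 list and 50 (94.3%) in the CTCF-AID list. Over all 2086 pairs 258 were on chromosome 19, and of all shared ZNF143 loops 66.5% were in the RAD21 list and 63.0% in the CTCF-AID list, where 51 of the 52 with 20 or more counts were. Of the 181, 14 (7.73%) were on chromosome 19, 180 (99.4%) were in the RAD21 list, the same share as of all CTCF loops with 20 or more counts, and 135 (74.6%) were in the CTCF-AID list. The median number of ZNF143 loops at the better connected anchor was 31 for the 53 pairs and 3 for the 181. It was 8 for the 23 pairs within 2-fold. That of CTCF loops was 7, 9 and 9 in the same order. These groups were formed by the counts themselves, so nothing is read from these medians either.

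Many of the strongest ZNF143 loops, like most ZNF143 loops of any count, had no listed CTCF counterpart. The highest count, 127, was that of a loop of chromosome 17 from 73779486 to 73781987 to 73850841 to 73852478, which joined 2 anchors with 44 ZNF143 loops each and 2 CTCF loops each. It had 111 counts in the CTCF-AID list and was not in the RAD21 list or in either CTCF list. The next joined chromosome 1, 156736325 to 156738000, to 156694980 to 156699097 (102 ZNF143 counts) and to 156715857 to 156717348 (100 counts). The shared end of the latter 2 loops had 32 ZNF143 loops and no listed CTCF loop.

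Conversely, the strongest CTCF loop without a ZNF143 counterpart joined chromosome 2, 65144385 to 65145631, to 65266796 to 65268773, with 127 CTCF and 145 RAD21 counts. Its anchors had 17 and 10 CTCF loops and no ZNF143 loop in wild-type cells, and the loop had 2 counts in the CTCF-AID list. The second joined chromosome 1, 161534518 to 161536723, to 161615908 to 161618116, with 124 CTCF, 117 RAD21 and 102 ZNF143KO CTCF counts, and the third chromosome 6, 39133769 to 39134966, to 39277051 to 39278933, with 91 CTCF and 126 RAD21 counts. The chromosome 6 loop had 7 counts in the CTCF-AID list, and the chromosome 1 loop was not listed there.

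Single anchors coincided far more than loops. A CTCF anchor was present at 5836 of the 9711 ZNF143 anchors (60.1%, 59.1 to 61.1), and 3667 (37.8%) had exactly the same start and end in the CTCF list. Of the 16948 CTCF anchors, 35.2% (34.5 to 35.9) lay at a ZNF143 anchor. With a minimum count of 5 these shares of anchors were 31.9% and 14.6%. By loop, 36.5% (35.7 to 37.4) of ZNF143 loops had both anchors at CTCF anchors, 42.2% (41.3 to 43.1) had 1 and 21.3% (20.6 to 22.1) had none. For CTCF loops these shares were 32.2%, 32.7% and 35.1%.

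Having both anchors in the other list did not make a loop shared. Of the 4375 ZNF143 loops with both anchors at CTCF anchors, 2102 (48.0%, 46.6 to 49.5) joined anchors that no CTCF loop joined directly. These loops had a median span of 183.5 kb, against 98.3 kb for the shared ones, and a mean count of 3.84. For 1050 of the 2102 (50.0%) the anchors were linked by CTCF loops over 1 middle anchor, and for 1719 (81.8%, 80.1 to 83.4) by a chain of CTCF loops of any length. On chromosome 19 lay 30.3% of the ZNF143 loops with no anchor at a CTCF anchor and 13.7% of the shared ones.

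Position relative to CTCF loops was then read for the 9708 ZNF143 loops that were not shared. A loop was put in the first class that applied. It crossed when 1 anchor lay inside and the other outside at least 1 CTCF loop, it was inside when it lay within a CTCF loop and crossed none, it enclosed when it held CTCF loops only, and otherwise it was outside all of them. Crossing loops numbered 6505 (67.0%, 66.1 to 67.9), with a median of 4 CTCF loops crossed and at most 39. Inside lay 1860 loops (19.2%, 18.4 to 20.0), 341 (3.51%) enclosed CTCF loops and 1002 (10.3%, 9.73 to 10.9) were outside. Crossing loops had a median span of 209.1 kb and inside loops one of 54.2 kb.

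Unshared RAD21 loops were placed by the same rule for comparison. Of these 49.6% crossed a CTCF loop and 33.0% lay inside one, so ZNF143 loops crossed more often by 17.4 percentage points (16.0 to 18.9) and lay inside less often, with a difference of -13.8 points (-15.1 to -12.5). The shares outside differed by -0.274 points (-1.18 to 0.628) over all spans, but in opposite directions by span, with 3.40 points (0.986 to 5.77) at 50 to 100 kb and -10.8 points (-15.3 to -7.11) at 1 to 2 Mb. The difference in crossing was above 0 in each span class, for example 8.22 points (4.88 to 11.5) at 20 to 50 kb, 20.7 points (17.9 to 23.6) at 100 to 200 kb and 36.1 points (28.8 to 42.9) at 1 to 2 Mb. Without chromosome 19 it was 15.1 points (13.5 to 16.6). The share of crossing ZNF143 loops was 29.0% when loops under 5 counts were dropped from each list, where 44.4% lay outside.

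**Figure D5:**
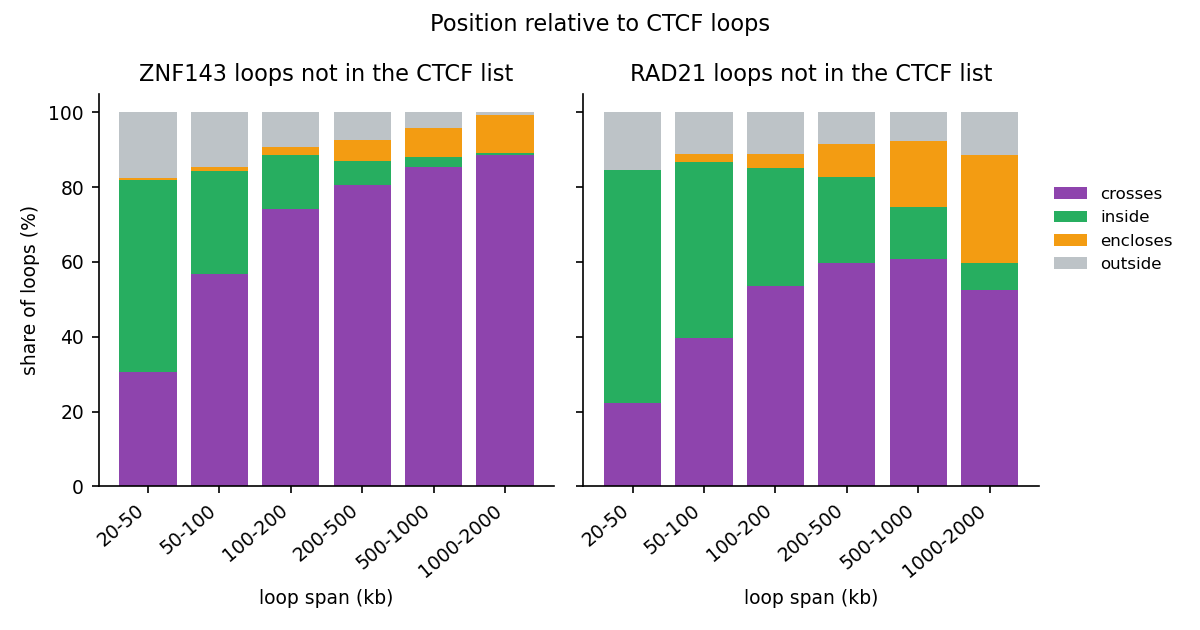
Position relative to CTCF loops, in stacked shares (%) by loop span, of ZNF143 loops (left) and RAD21 loops (right) that were not in the CTCF list. The crossing share of ZNF143 loops runs from 30.4% at 20 to 50 kb to 88.6% at 1 to 2 Mb, and that of RAD21 loops from 22.2% to 52.5%.

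As a share of all unshared loops, those that start at a CTCF loop anchor and stop inside that loop were less common for ZNF143. They made up 31.6% (30.7 to 32.5) of unshared ZNF143 loops and 59.3% (58.2 to 60.4) of unshared RAD21 loops. Loops that start at a CTCF loop anchor and run past the far anchor of that loop made up 41.3% (40.3 to 42.3) and 50.3% (49.2 to 51.4). A loop could be in both of these counts. Both need an anchor at a CTCF anchor, where 60.1% of all ZNF143 and 72.3% of all RAD21 anchors lay. The part of this in the lower shares was not tested. Seen from the other side, 16850 CTCF loops were unshared, of which 35.7% (35.0 to 36.4) crossed a ZNF143 loop and 36.6% (35.8 to 37.3) lay outside all ZNF143 loops. On chromosome 19 these shares were 73.3% (70.2 to 76.2) and 6.12% (4.70 to 7.93), and elsewhere 33.7% and 38.2%.

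Shared ZNF143 loops were found much more often than unshared ones in the RAD21 list, and slightly more often over all counts in the CTCF-AID list, where the order varied with the count. In the RAD21 list were 66.5% (64.6 to 68.4) of the shared ZNF143 loops and 4.53% (4.14 to 4.96) of the unshared ones, a difference of 62.0 points (59.97 to 63.9). Unshared loops stayed low at high counts, with 17 of 181 loops (9.39%, 5.95 to 14.5) in the RAD21 list at 20 or more counts. In the ZNF143 list of CTCF-AID cells were 63.0% of shared and 58.8% of unshared loops, a difference of 4.15 points (1.92 to 6.34). At a count of 2 the shares were 51.8% (49.0 to 54.6) and 43.3% (41.9 to 44.6). At a count of 3 they were 62.5% (57.8 to 67.0) and 64.0% (61.7 to 66.1), and at 4 they were 79.0% (72.5 to 84.3) and 72.5% (69.4 to 75.4). At 5 to 9 they were 82.3% (77.5 to 86.3) and 82.9% (80.8 to 84.7), and at 10 to 19 they were 95.5% (89.8 to 98.0) and 90.3% (87.3 to 92.6). At 20 or more counts they were 51 of 52 and 175 of 181 (96.7%, 93.0 to 98.5). The intervals overlapped in each class except a count of 2. The CTCF-AID list had more loops than any other used here.

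Shared CTCF loops were also those found more often elsewhere. In the RAD21 list were 70.1% (68.2 to 71.9) of shared and 43.0% (42.2 to 43.7) of unshared CTCF loops, and in the CTCF list of ZNF143KO cells 66.7% (64.9 to 68.6) and 35.0% (34.3 to 35.8). Shared CTCF loops had the higher counts, and at 20 or more counts the shares in the ZNF143KO list were 99.4% (96.5 to 99.9) and 97.1% (93.4 to 98.8), with overlapping intervals. At a count of 2 they were 46.0% (42.5 to 49.5) and 22.4% (21.5 to 23.3). Shared loops were also the shorter ones, and the part of span in this difference was not tested.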

How the data were processed

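HiChIP loop lists of 5 of the 7 libraries were used, 1 per group, grouped by sample title. The authors deposited whole-number counts per loop with no header and no scaling, and the deposited counts were used as they stand. The submitters' processing notes name HiC-Pro and hg19. The loop caller, versions, filters and pooling of runs are not given in the sources used here. Deposited starts were read as counted from 0 and are printed counted from 1.

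Loops matched when both anchors of the loop looked up, extended by 5 kb, overlapped by at least 1 bp the unextended anchors of a loop in the other list. The alternative of 10 kb equals an extension of both lists by 5 kb. Overlapping anchors of a list were merged, and an anchor's number of loops counted from them. Shares carry 95% Wilson intervals, differences 95% Newcombe intervals and medians order-statistic intervals. Counts of matched loops were divided by each list's total. Python 3.11.15, pandas 2.3.3, scipy 1.17.1 and networkx 3.6.1 were used, and matching and classes were tested on simulated loops.

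Named loops were, by count, the first 4 shared, the first 3 of each list without counterpart and the 3 highest and 3 lowest ratios at a summed count of at least 20. Named anchors were the 4 with most loops in each list, and named chromosomes the 3 highest and 3 lowest differences. Members and rules were chosen with earlier results of these data known. Alternatives were other extensions, minimum counts, equal numbers of loops, spans, merging of anchors and leaving out chromosome 19. Planned work on genes and sequence at anchors was not done, since no hg19 genome or annotation was used here.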

Additional observations from a re-analysis of the deposited data

How the results depend on the processing

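Of 101 combinations of 16 results and 8 alternatives, 19 stayed within the counting error of the reported value and 77 moved beyond it. In 5 the value itself changed sign, or for the ratio of spans its side of 1. Leaving out chromosome 19, and the results on hubs, on crossing against RAD21 and on unshared loops in other lists, were added after seeing the data. The shares are given below in 1 order: ZNF143 loops in the CTCF list, CTCF loops in the ZNF143 list, ZNF143 anchors at CTCF anchors, CTCF anchors at ZNF143 anchors, then unshared ZNF143 loops inside, crossing and outside CTCF loops. With no extension they were 14.1, 8.78, 53.4, 30.6, 14.8, 73.4 and 9.15%, and with 10 kb 23.8, 16.3, 65.8, 39.2, 22.3, 62.0 and 11.3%. With a minimum count of 3 they were 13.3, 8.68, 48.3, 24.4, 17.8, 49.9 and 23.8%, and with 5 they were 7.53, 4.92, 31.9, 14.6, 14.8, 29.0 and 44.4%. With equal numbers of loops they were 15.2, 15.8, 50.7, 40.4, 18.6, 56.6 and 17.9%, so that the first pair changed order. With spans of 40 kb to 1 Mb they were 18.2, 12, 58.4, 33.1, 13.6, 71.5 and 11.5%, and without chromosome 19 they were 21.7, 11.99, 60.9, 33.5, 20.2, 64.1 and 11.7%. The crossing share of ZNF143 minus RAD21 loops was 15.5 points with no extension, 21.6 at a minimum count of 3, 19.9 with limited spans and 15.1 without chromosome 19. Unshared ZNF143 loops were in the RAD21 list in 3.47 and 5.96% of cases with 0 and 10 kb, in 2.87 and 1.41% at minimum counts of 3 and 5, and in 5.52% without chromosome 19. In the CTCF-AID list these shares were 53.1, 63.6, 62.1, 69.1 and 54.1%. The share of anchors with 5 or more loops, ZNF143 minus CTCF, changed sign to 2.77 and 6.22 points at minimum counts of 3 and 5 and to 2.60 with equal numbers, and was -3.37 without chromosome 19. For 10 or more loops the difference was 2.94, 2.78, 2.92 and 0.892 points in these settings. The share of loop ends at the 1% of anchors with most loops differed by 4.46 points at a minimum count of 5 and by 4.79 without chromosome 19. The ratio of median spans was 0.888 and 0.775 at minimum counts of 3 and 5 and 0.875 without chromosome 19. It was 1.02 with equal numbers and 0.968 with limited spans, both with a range that includes 1. The chromosome 19 difference was 23.4 and 25.6 points at minimum counts of 3 and 5. The median log2 ratio of matched counts was 0.25 and 0.45 at these counts, -0.58 with equal numbers, 0.27 with limited spans and 0.54 without chromosome 19. The cause of these changes was not tested. No paired analysis was possible because each group held 1 library, and for the same reason no replicate could be left out. Low counts limit the lists: a loop below 2 counts is not listed, and matching to genes or sequence was not run.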
